A study of Mus musculus with 18 samples.

Results

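The Hox genes are a family of homeodomain transcription factors, and 37 of them are described here, among 19938 genes in all. Members were taken as every gene whose symbol in the array annotation is Hox followed by the cluster letter and a number. A probe set, the group of probes that reports 1 transcript, was used if the annotation gave it a single symbol. Each of the 37 genes had 1 such probe set. Hoxb8 was listed on a probe set shared with Hoxb7 and is not described as a member.

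Mouse Hox genes lie in 4 clusters, HoxA on chromosome 6, HoxB on chromosome 11, HoxC on chromosome 15 and HoxD on chromosome 2. Genes of the same number in different clusters descend from 1 ancestral gene and form a paralogue group, numbered 1 to 13. The order of the genes along a cluster follows the order of their expression domains along the body, from the hindbrain for group 1 to the tail and the tips of the limbs for group 13. Fibroblasts taken from different body sites keep different sets of active Hox genes in culture, and Polycomb and Trithorax proteins hold those sets in their off and on states.

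All cells were wild type mouse embryonic fibroblasts on a C57BL/6 background, connective tissue cells grown from embryos of embryonic day 13 after the head and liver had been taken off. The labels trace them to 2 mice, say that the wild type line used on these arrays came from a mating that also gave Bmal1-/- siblings, and describe the serum of the medium in ways that differ. Every culture received 100 nM dexamethasone, a synthetic glucocorticoid that sets the clocks of cultured cells to a common phase, for 2 h. RNA was taken at 22, 26, 30, 34, 40 and 46 h, and 3 samples a time, called biological replicates in the labels, gave 18 arrays. There is no untreated group among these samples. Since nothing says that the replicates were separate cultures or animals, a p-value here reflects how far these samples spread, which may be technical. The cultures were started from all the tissue left, and so from many body levels at once. In such bulk samples fewer cells of a type and less RNA per cell cannot be told apart. Of 12 fibroblast markers, 10 stood above the background defined below.

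Levels are given as log2(intensity + 16) after quantile normalization, so a difference of 1 is a doubling at high signal and understates the change of dim genes. Probe sets differ in how brightly they hybridise, so levels are set against the background and no order of transcript amounts is read between genes. Median intensities ran from 196 to 210 over the arrays, whose number sets the limit to the precision.

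The sequences below are those just before the annotated starts of 3 genes whose level differed over the times, in RefSeq assembly GRCm38.p6. Hoxc4, whose listed start lies inside its own gene model, is not shown. They show how unlike these upstream regions are and which sites for Hox partner proteins or clock proteins they hold. Each is written 5′ to 3′ in the direction of the gene. Capitals mark the motifs found in a search of both strands for CACGTG, the E-box bound by CLOCK and BMAL1, TTATGTAA, a D-box, AGGTCA, a core site of ROR and REV-ERB receptors, TGATNNAT, a joint site of Pbx and Hox proteins, and TGACAG, a Meis site.

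Hoxa2, chr6:52164832-52165081, minus strand: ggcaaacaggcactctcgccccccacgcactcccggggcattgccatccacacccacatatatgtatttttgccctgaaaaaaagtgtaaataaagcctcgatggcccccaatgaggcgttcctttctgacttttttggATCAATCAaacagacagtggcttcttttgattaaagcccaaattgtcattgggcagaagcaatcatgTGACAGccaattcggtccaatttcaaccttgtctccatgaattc

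Hoxb1, chr11:96365508-96365745, plus strand: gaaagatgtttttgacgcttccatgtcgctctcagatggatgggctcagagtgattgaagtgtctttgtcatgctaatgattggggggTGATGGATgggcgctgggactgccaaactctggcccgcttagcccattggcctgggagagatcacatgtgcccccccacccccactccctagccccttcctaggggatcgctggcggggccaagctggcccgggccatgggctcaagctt

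Hoxd13, chr2:74667975-74668224, plus strand: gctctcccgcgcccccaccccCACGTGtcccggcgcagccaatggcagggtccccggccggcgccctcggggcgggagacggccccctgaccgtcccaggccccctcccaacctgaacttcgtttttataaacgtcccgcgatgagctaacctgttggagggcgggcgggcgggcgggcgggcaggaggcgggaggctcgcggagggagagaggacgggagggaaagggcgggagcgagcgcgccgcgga

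The Hoxa2 sequence held a Pbx-Hox match at bases 140 to 147, where it reads on the opposite strand, and a Meis match at bases 207 to 212. The Hoxb1 sequence held a Pbx-Hox match at bases 89 to 96. The Hoxd13 sequence held the E-box letters at bases 22 to 27. Over 32851 annotated promoter windows of 250 bases, CACGTG was present in 6.02%, TTATGTAA in 0.819%, AGGTCA in 14%, TGATNNAT in 7.68% and TGACAG in 15.9%. Over the 24 windows of Hox genes in the same table these motifs were found in 4, 0, 6, 4 and 2 windows. A match describes letters and is not evidence of binding.

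These regions also differed in their content of CG dinucleotides, the sites of DNA methylation that are dense in promoters under Polycomb control. The Hoxd13 sequence held 31 CG in 250 bases and was 74.4% G or C. The Hoxa2 sequence held 6 in 250 bases at 46.4%, and the Hoxb1 sequence 7 in 238 bases at 59.2%. Over the 23 windows of 21 measured Hox genes the median was 13 CG, from 2 to 35, and 18 windows lay above the median of 6 over all promoters.

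The HoxC cluster also carries a microRNA, miR-615, whose gene lies inside the Hoxc5 gene model. Its mature sequences are shown because its probe set moved with its Hox neighbours, and capitals mark the seed, bases 2 to 8, which pairs with target messages.

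mmu-miR-615-5p, chr15:103014926-103014947, plus strand: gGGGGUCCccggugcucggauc

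mmu-miR-615-3p, chr15:103014969-103014990, plus strand: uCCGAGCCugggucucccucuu

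Most Hox genes of the anterior and middle parts of the HoxA, HoxB and HoxC clusters gave a signal above background, while most of HoxD and of the posterior groups did not. With no detection call in the table, background was set from 1194 olfactory and vomeronasal receptor genes, which fibroblasts are not known to use. Their median level was 6.20 and their 95th percentile 7.41. By this measure 26 of 37 Hox genes were above background, against 61.2% of all genes. Against a higher line, the 95th percentile of the markers of other cell types at 8.97, it was 17 of 37, against 36.4% of all genes. The members then lost include all 3 of HoxD, and Hoxb1 and Hoxc4.

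All 7 measured genes of groups 1 to 3 were above the receptor background of 7.41, and so were 12 of 14 in groups 4 to 8 and 5 of 7 in groups 9 to 10. In groups 11 to 13 it was 2 of 9. The 4 genes of groups 4 to 10 that were not above it were all in HoxD, namely Hoxd4 (mean over 18 arrays 6.97), Hoxd8 (6.85), Hoxd9 (6.74) and Hoxd10 (6.84). By cluster, the count was 8 of 10 in HoxA, 9 of 9 in HoxB, 6 of 9 in HoxC and 3 of 9 in HoxD.

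The HoxD genes above background were Hoxd1, Hoxd3 and Hoxd13, from the 2 ends of the cluster. Hoxd13, required for the digits, had a mean of 8.93 and was above the receptor percentile on all 18 arrays. The measured genes between it and Hoxd4 were all below the background. Hoxa13, the paralogue of Hoxd13 that acts with it in the digits, had a mean of 7.18 and passed on 1 array.

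The threshold falls among dim genes. Just inside it were Hoxb13 and Hoxd1, both with a mean of 7.42, which passed the percentile of the array itself on 8 and 9 of 18 arrays. Just outside it was Hoxa13, and the other 10 members below it passed on 0 arrays. At the 99th percentile of the receptors, 8.03, the count was 24, without Hoxb13 and Hoxd1. The nearest members above that line were Hoxc4 (8.09) and Hoxb1 (8.10).

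**Figure D1:**
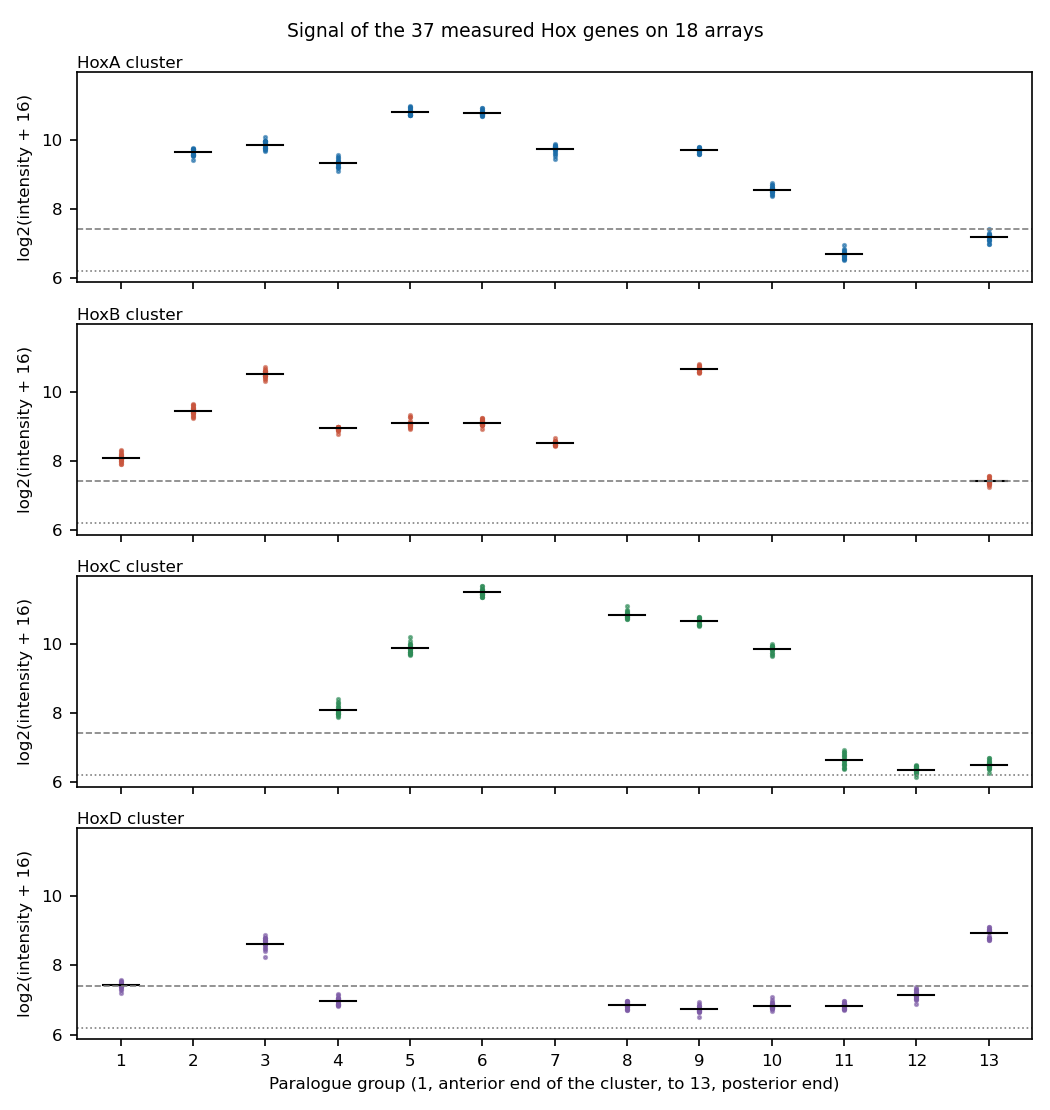
Signal of the 37 measured Hox genes as log2(intensity + 16), 1 panel per cluster, with the paralogue group on the horizontal axis. Each point is 1 of the 18 arrays, and the line is the 95th percentile of the receptor genes at 7.41. The HoxB means all lie above the line, with that of Hoxb13 just over it, HoxA and HoxC fall below it in the posterior groups, and HoxD shows 6 of its 9 genes below it.

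A set of neighbouring HoxC genes was higher at 46 h than at 22 h, and so were Hoxb1 and Hoxb5, while Hoxa2 was lower. The changes were small, from 1.17 to 1.27 times among the genes that rose. An F test over the 6 times, fitted with limma and adjusted over all genes by Benjamini-Hochberg at a threshold of 0.05, called 5 of 37 Hox genes, against 19.8% of all genes. These were Hoxa2, Hoxb1, Hoxc4, Hoxc13 and Hoxd13. The contrast of 46 h with 22 h called 6 of 37, against 21.2% of all genes. It was higher for 5, Hoxb1, Hoxb5, Hoxc4, Hoxc5 and Hoxc6, against 11.5% of all genes, and lower for 1, Hoxa2, against 9.73%. These shares are near those of all genes, and 29 of the 37 passed neither test.

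Across all 37 genes the size of the changes lay near that of other genes. The median range between the highest and lowest time mean was 0.18 for Hox genes, from 0.06 to 0.37, and 0.19 for all genes. The median difference between 46 h and 22 h was 0.06, with 26 of 37 above 0, against 0.03 over all genes, of which 58.2% were above 0. It was 0.02 in HoxA, 0.05 in HoxB, 0.11 in HoxC and 0.11 in HoxD. Of the 9 HoxD genes 6 were below the receptor background, and 0 were called higher or lower at 46 h. The arrays of 46 h and 22 h did not overlap for 11 of 37 Hox genes, against 36.6% of all genes.

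The normalization sets part of this picture. With each array scaled to the same median in place of quantile normalization, 2 Hox genes were called higher at 46 h (Hoxb1 and Hoxc4) and 2 lower (Hoxa2 and Hoxb9). Over all genes that scaling gave 1884 higher and 3315 lower, where quantile normalization gave 2295 and 1939.

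**Figure D2:**
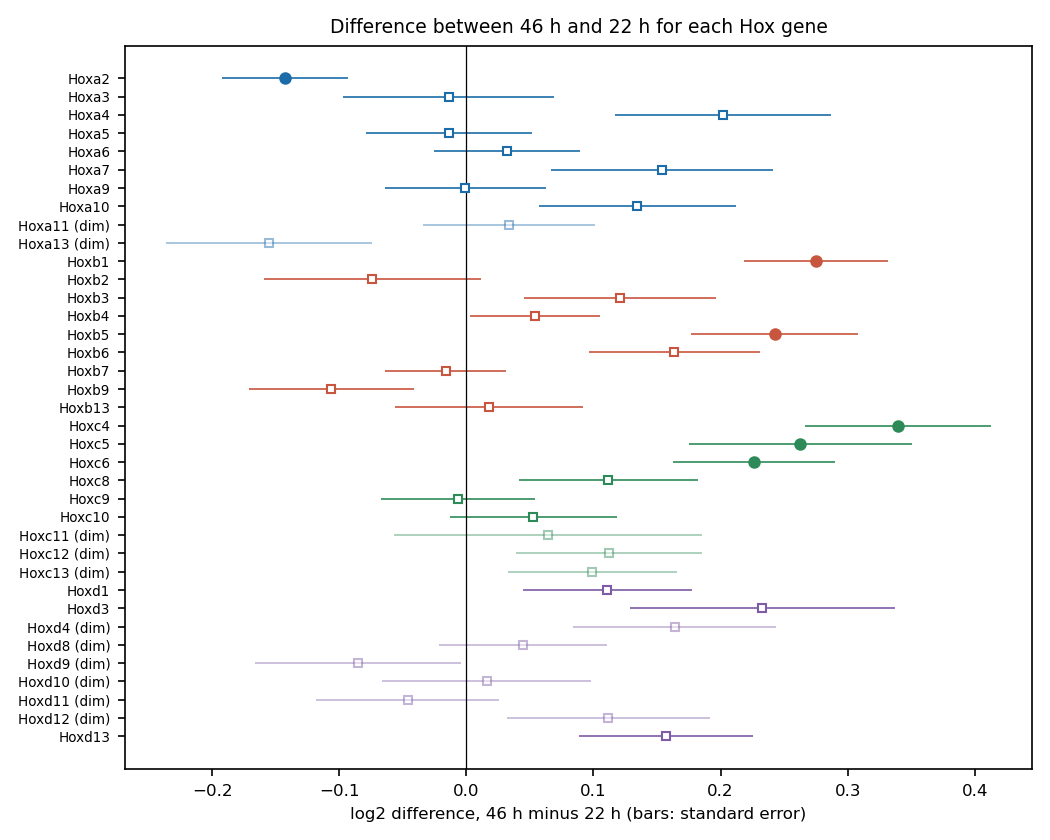
Difference between 46 h and 22 h in log2(intensity + 16) for each of the 37 Hox genes, with the standard error as bars and genes below the receptor background marked as dim. The differences run from -0.16 for Hoxa13, a dim gene, to 0.34 for Hoxc4, and 6 of them passed the test.

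Hoxc4, Hoxc5 and Hoxc6 stand next to each other in HoxC, and their products act in the neck and upper trunk, where Hoxc6 helps set the motor neurons of the forelimb level. Hoxc4 (probe set 10427303) lay at 8.08, 7.91 and 8.01 on the arrays of 22 h and at 8.39, 8.32 and 8.30 on those of 46 h. Between these, its mean was 8.08 for 26 h, 8.05 for 30 h, 7.96 for 34 h and 8.14 for 40 h. All 15 earlier arrays lay below the 3 arrays of 46 h. The difference was 0.34 ± 0.07 (SE, n = 3 arrays a time, limma adjusted p = 0.00284), a ratio of 1.27, and the F test gave an adjusted p of 0.0122.

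Hoxc5 (probe set 10427297) lay at 9.75, 9.78 and 9.72 at 22 h and at 9.96, 9.99 and 10.09 at 46 h. At 40 h its arrays read 10.19, 9.92 and 9.70, so that replicate 1 of 40 h was higher than any array of 46 h and replicate 3 lower than any of 22 h. The groups of 22 h and 46 h did not overlap. The difference was 0.26 ± 0.09 (SE, n = 3, limma adjusted p = 0.0417), and the F test over all times did not pass (adjusted p = 0.121).

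Hoxc6 (probe set 10427293) lay at 11.35, 11.44 and 11.35 at 22 h and at 11.60, 11.56 and 11.67 at 46 h. The same array of 40 h, replicate 1, was its highest at 11.69. The difference between 46 h and 22 h was 0.23 ± 0.06 (SE, n = 3, limma adjusted p = 0.0172), and the F test did not pass (adjusted p = 0.0984). For Hoxc4, Hoxc5 and Hoxc6 alike the mean at 34 h was lower than those at 30 h and 40 h.

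Mir615, the gene of the microRNA shown above, is no Hox gene and was singled out after its values were seen. Its probe set lay at 8.19, 8.14 and 8.24 at 22 h and at 8.49, 8.45 and 8.58 at 46 h. It rose by 0.32 ± 0.09 (SE, n = 3, limma adjusted p = 0.0133), with an F test at an adjusted p of 0.0439. At 40 h it read 8.57, 8.39 and 8.17, again with replicate 1 on top. The gene models of Hoxc4, Hoxc5 and Hoxc6 do not overlap each other, and Mir615 lies within that of Hoxc5, so a signal from the Hoxc5 transcript and one from the microRNA precursor cannot be told apart by position.

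The next HoxC genes did not pass. Hoxc8, which patterns the lower brachial and thoracic levels, had time means from 10.74 at 22 h to 10.95 at 34 h and differed by 0.11 ± 0.07 (SE) between 46 h and 22 h (limma adjusted p = 0.286). Hoxc9, which sets the thoracic motor columns, ranged from 10.59 at 46 h to 10.75 at 34 h (F adjusted p = 0.203). Hoxc10, active at lumbar levels, ranged from 9.75 at 22 h to 9.97 at 34 h (F adjusted p = 0.187). These 3 genes had their highest mean at 34 h, the time at which Hoxc4 and Hoxc5 had their lowest. That contrast was noticed in the data and was not tested.

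Hoxb1, which gives the hindbrain segment of the facial nerve its identity, rose between 22 h and 46 h. Probe set 10380665 lay at 7.92, 7.92 and 7.97 on the arrays of 22 h, then 8.28, 8.16 and 8.23 for 40 h and 8.32, 8.19 and 8.12 for 46 h. All 15 later arrays lay above the 3 arrays of 22 h. The difference between 46 h and 22 h was 0.27 ± 0.06 (SE, n = 3, limma adjusted p = 0.0021), a ratio of 1.21, and the F test gave an adjusted p of 0.00904.

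Hoxb5, which acts in the shoulder region and the enteric nervous system, lay at 8.98, 9.09 and 8.94 at 22 h and at 9.16, 9.26 and 9.32 at 46 h (probe set 10380641). The 2 groups did not overlap, and replicate 1 of 40 h, at 9.27, was again higher than its partners at 9.03 and 9.01. The difference was 0.24 ± 0.07 (SE, n = 3, limma adjusted p = 0.0134). The F test did not pass (adjusted p = 0.069).

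In the rest of HoxB, 7 genes above background passed neither test, with ranges of the time means from 0.09 to 0.20. Hoxb6 was nearest, at 0.16 ± 0.07 (SE, n = 3) higher at 46 h with no overlap of the arrays of 22 h and 46 h (limma adjusted p = 0.0956). Hoxb2, another hindbrain gene, ranged from 9.35 at 46 h to 9.55 at 26 h. Hoxb3 ranged from 10.43 at 22 h to 10.59 at 34 h and 40 h. Hoxb4, known for its effect on blood stem cells, stayed between 8.89 and 8.99.

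Toward the posterior end, Hoxb7 had time means from 8.48 to 8.59. Hoxb9, which acts in the thoracic skeleton, ranged from 10.58 at 46 h to 10.71 at 34 h, and its difference of -0.11 ± 0.06 (SE) between 46 h and 22 h did not pass (limma adjusted p = 0.272). Hoxb13, a gene of the tail and prostate, stayed between 7.38 and 7.47, at the edge of the background. The probe set shared by Hoxb7 and Hoxb8 had a mean of 9.24 and array values from 9.08 to 9.41.

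Hoxa2, the selector gene of the second branchial arch, fell. Probe set 10544751 lay at 9.74, 9.73 and 9.67 at 22 h and at 9.73, 9.74 and 9.75 at 26 h. It then lay at 9.54, 9.56 and 9.42 at 40 h and at 9.57, 9.58 and 9.55 at 46 h. The arrays of 22 h and 26 h were all above those of 40 h and 46 h. The difference between 46 h and 22 h fell by 0.14 ± 0.05 (SE, n = 3, limma adjusted p = 0.0495), a ratio of 0.906, and the F test gave an adjusted p of 0.0127.

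A long noncoding RNA beside it, Hoxaas2, whose gene lies between Hoxa2 and Hoxa3 and overlaps the Hoxa3 gene model, also fell. It lay at 8.23, 8.13 and 8.17 at 22 h and at 7.82, 7.92 and 7.81 at 46 h. Its difference was -0.33 ± 0.06 (SE, n = 3, limma adjusted p = 0.00113). Hoxa3, needed for the thymus and parathyroid, did not pass, with time means from 9.77 at 40 h to 9.94 at 30 h (F adjusted p = 0.51).

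The other 6 HoxA genes above background passed neither test either. Hoxa4 lay at 9.21, 9.21 and 9.17 at 22 h and at 9.32, 9.46 and 9.42 at 46 h, a difference of 0.20 ± 0.09 (SE, n = 3) that did not pass (limma adjusted p = 0.104). Hoxa5, which acts in the lung and trachea, ranged from 10.74 at 46 h to 10.90 at 30 h, and Hoxa6 from 10.71 to 10.85. Hoxa7 ranged from 9.60 at 22 h to 9.81 at 34 h. Hoxa9, known from blood cells and leukaemia, had the smallest range among the genes above background, from 9.67 to 9.74 (F adjusted p = 0.925). Hoxa10, a gene of the lumbar skeleton and uterus, ranged from 8.46 to 8.63.

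In HoxD, Hoxd13 changed over the times. Probe set 10472946 lay at 8.78, 8.81 and 8.75 at 26 h and at 8.98 to 9.10 at 34 h, with no overlap between these times. It read 8.78, 8.85 and 9.03 at 22 h and 8.98, 9.10 and 9.06 at 46 h, so replicate 3 of 22 h lay within the later range. The F test gave an adjusted p of 0.0242 (limma, n = 3 arrays a time), while the difference of 0.16 ± 0.07 (SE) between 46 h and 22 h did not pass (adjusted p = 0.118).

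Hoxd3, which patterns the first neck vertebra, read 8.24, 8.70 and 8.40 at 22 h and 8.63, 8.80 and 8.62 at 46 h. Its arrays of 22 h spread more (SD 0.23) than those of 46 h (SD 0.10), and the difference of 0.23 ± 0.10 (SE) did not pass (limma adjusted p = 0.127). Hoxd1 stayed between time means of 7.33 and 7.52.

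Of the 11 Hox genes not above background, Hoxc13, a gene of hair and nails, passed the F test (adjusted p = 0.0412). Its arrays read 6.27, 6.37 and 6.46 at 26 h and 6.61, 6.56 and 6.71 at 34 h. It passed the receptor percentile on 0 arrays, so this is a change within the range of the background. The other 10 passed neither test, and the smallest adjusted p of the contrast among the 11 was 0.162, for Hoxd4.

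**Figure D3:**
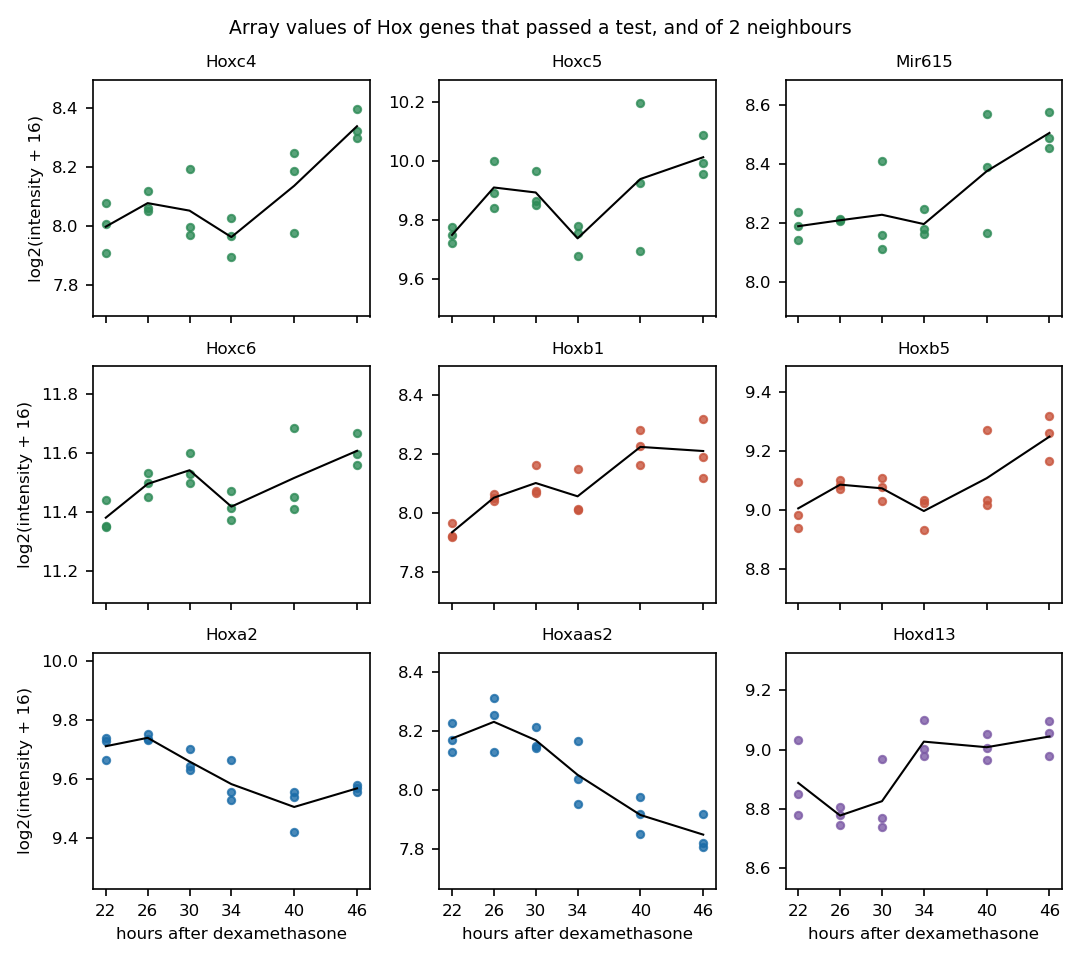
Array values, as log2(intensity + 16), of 7 Hox genes that passed a test and were above background, and of their neighbours Mir615 and Hoxaas2, against hours after dexamethasone. Each point is 1 array, the line joins the means of 3 arrays, and every panel spans the same height. Hoxc4, Hoxc5, Mir615, Hoxc6 and Hoxb5 have their highest mean at 46 h, and Hoxa2 and Hoxaas2 have theirs at 26 h.

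The calls differed in how far they rested on single arrays. With each of the 18 arrays left out in turn, the differences of Hoxb1 and Hoxc4 between 46 h and 22 h passed every time (limma adjusted p up to 0.0152 and 0.0155). Hoxb5 and Hoxc6 each lost the call without replicate 1 of 22 h, replicate 3 of 22 h or replicate 3 of 46 h (adjusted p up to 0.0703 and 0.0772). Hoxc5 lost it without any of 9 arrays and Hoxa2 without any of 14, with adjusted p up to 0.144 and 0.149. The F test of Hoxa2 and Hoxb1 passed every time, that of Hoxc4 was lost without replicate 1 of 46 h (0.0594), that of Hoxd13 without replicate 3 of 26 h or of 46 h (up to 0.0604), and that of Hoxc13 without any of 11 arrays.

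With arrays scaled to the same median, Hoxc6 differed by 0.13 (limma adjusted p = 0.103), Hoxb5 by 0.14 (0.104) and Hoxc5 by 0.15 (0.224). Hoxb1 and Hoxc4 still passed, at 0.26 (0.00303) and 0.31 (0.00518), and Hoxa2 at -0.26 (0.00188). The F test of Hoxd13 then gave 0.129. The rise of Hoxb1 and Hoxc4 and the fall of Hoxa2 thus passed under both scalings.

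With quantile normalization and no array weights, no Hox gene passed the test for a 24 h rhythm. A cosine with a period of 24 h, fitted with limma, called 0 of 37 Hox genes, against 0.828% of all genes, and 6 had an unadjusted p under 0.05, against 21.3% of all genes. The count of called Hox genes rests on the normalization and on the weights of the arrays. It was 2 in the values as deposited (Hoxa2 and Hoxa11, against 2.71% of all genes). With arrays scaled to the same median it was 4 (Hoxa2, Hoxa3, Hoxa5 and Hoxa11, against 5.98%). With array weights it was 1 (Hoxa2, against 5.23%). Hoxa11 was not above background, with a mean of 6.68 and 0 arrays over the receptor percentile. With quantile normalization and no array weights the smallest adjusted p was 0.0819, for Hoxa2. Its curve peaked at 26.7 h with an amplitude, the log2 distance from mean to peak, of 0.11 ± 0.03 (SE, n = 18 arrays). The curve of Hoxd13 peaked at 39.4 h with an amplitude of 0.13 ± 0.04 (adjusted p = 0.139). The median amplitude was 0.06 for Hox genes and 0.06 for all genes. Since the times span 1 cycle, a rhythm could not be seen to repeat.

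Arrays of the same time differed from each other along shared lines, and the Hox genes followed them in part. After the time means were taken out, the first principal component of all genes held 33.8% of the remaining variance and parted the arrays into sets of 8 and 10. The median absolute correlation of a gene with it was 0.324 for Hox genes and 0.443 for all genes. It ran widely among members, at -0.93 for Hoxd3, -0.92 for Hoxa7 and -0.79 for Hoxa5, 0.60 for Hoxa9 and 0.47 for Hoxc4, and -0.02 for Hoxb1. What the component stands for is not given in the labels. Within the set that held 2 arrays of each end time, the difference between 46 h and 22 h was 0.30 for Hoxc4, 0.28 for Hoxb1, 0.28 for Hoxc6, 0.29 for Hoxc5, 0.28 for Hoxb5 and -0.14 for Hoxa2. The other set held 1 array of each end time, and its differences of 0.41, 0.27, 0.12, 0.22, 0.17 and -0.15, in the same order, have no spread. Both sets were drawn from the arrays on which these genes were called, so neither row of differences says anything about stability.

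Some pairs of Hox genes rose and fell together between arrays of the same time. Residuals from the time means were correlated over the 18 arrays for the 325 pairs of the 26 genes above background, as a description with no test, since all pairs share the arrays and their component. The median r was 0.11 over all pairs of Hox genes and 0.01 over all pairs of genes above background. It was 0.43 for the 20 pairs next to each other in the order of gene starts, with quartiles of 0.01 and 0.58. That order, taken from the gene models, puts Hoxb4 and not Hoxb3 next to Hoxb2. For the 62 pairs of the same cluster that were not neighbours, the median was 0.11. It was 0.48 for the 20 pairs of the same paralogue group and 0.06 for the 223 pairs of different cluster and group.

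Hoxc5 and Hoxc6 gave an r of 0.91, and Hoxc4 and Hoxc5 one of 0.67. The pair beyond them, Hoxc6 and Hoxc8, gave -0.03. In HoxA the neighbours Hoxa3 and Hoxa4 gave 0.70, but the Hoxa3 gene model overlaps those of Hoxa4, Hoxa5 and Hoxa6, so their signals cannot be told apart by position. Among HoxA neighbours outside that overlap, Hoxa2 and Hoxa3 gave 0.28 and Hoxa6 and Hoxa7 gave 0.40. Hoxa7 and Hoxa9 gave -0.54, and Hoxa9 and Hoxa10 gave -0.47. The correlations of Hoxa7 and Hoxa9 with the first component were -0.92 and 0.60. Hoxb9 and Hoxc9, of the same group on different chromosomes, gave 0.83 and Hoxb4 and Hoxc4 gave 0.78, but Hoxa9 and Hoxc9 gave -0.14. The highest r of all, 0.94, was between Hoxa7 and Hoxd3, which share neither cluster nor group and were the members most tied to the first component.

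**Figure D4:**
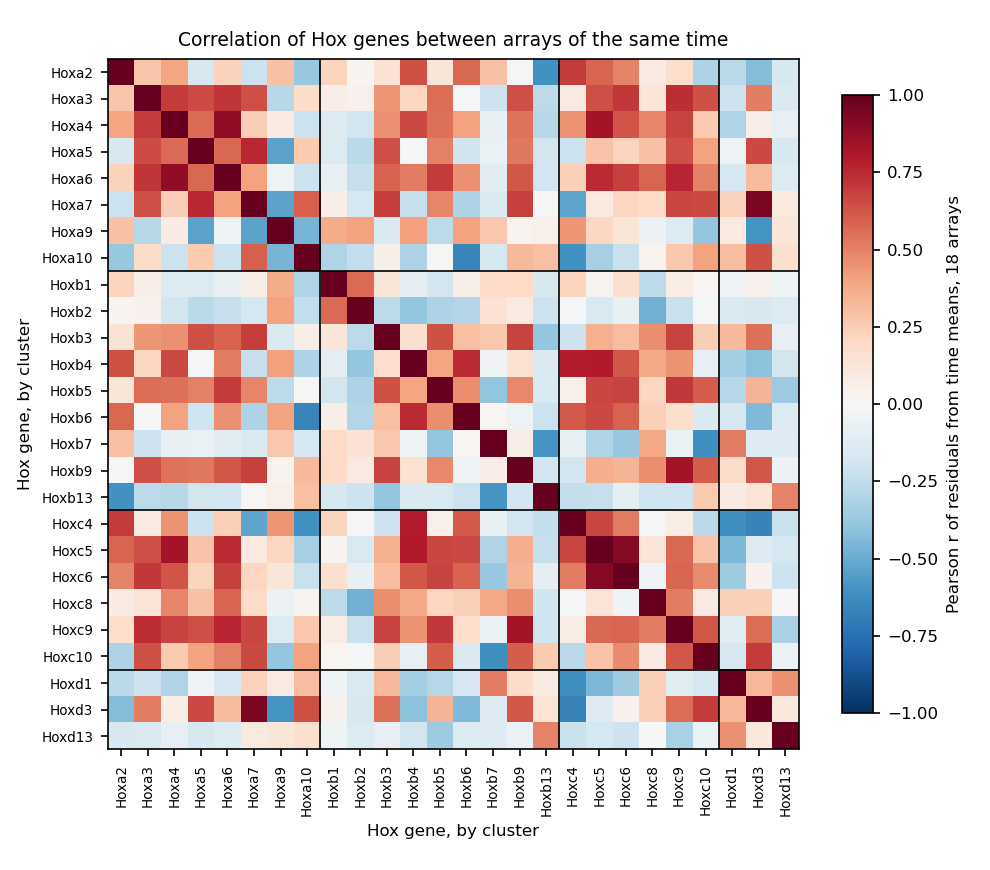
Pearson correlation of residuals from the time means over 18 arrays between the 26 Hox genes above background, ordered by cluster on both axes. The colour gives r. High values stand beside the diagonal, as for Hoxc5 and Hoxc6 (0.91), and also between clusters, as for Hoxa7 and Hoxd3 (0.94), and Hoxa9 is negative with Hoxa7 (-0.54).

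The cofactors through which Hox proteins bind DNA, and the complexes that hold the clusters on or off, were read from lists that were chosen with earlier results in view. Among all genes above background, 27.2% passed the F test and 29.9% the contrast of 46 h with 22 h. By direction, 11.5% of all genes were higher at 46 h and 9.73% lower. Of 8 measured TALE genes, which encode the Pbx, Meis and Pknox partners of Hox proteins, 3 passed the F test, and between 22 h and 46 h 1 rose and 1 fell, with a median difference of 0.04. Pknox2 rose by 0.64 ± 0.05 (SE, n = 3, limma adjusted p = 1.74e-07), Pknox1 fell by 0.35 ± 0.07 (adjusted p = 0.00134), and Meis3 passed the F test (adjusted p = 0.0172) with a difference of 0.20 ± 0.08 that did not pass.

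Of 26 measured Polycomb genes, 7 passed the F test, with 3 higher and 6 lower at 46 h and a median difference of 0.02. Phf19, which helps bring the repressor complex to its targets, fell by 1.06 ± 0.08 (SE, n = 3, limma adjusted p = 3.19e-08). Suz12, a core subunit, fell by 0.28, Pcgf5 by 0.31 and Cbx7, which reads the Polycomb histone mark, by 0.23. The 3 that were higher were Jarid2, by 0.24, Pcgf2, by 0.26, and Ezh1, by 0.18. Of 12 Trithorax and H3K27 demethylase genes, 2 passed the F test, with 2 higher and 2 lower. Kdm6b, an enzyme that removes the Polycomb mark, rose by 0.38 ± 0.08 (limma adjusted p = 0.00251), and Wdr5 fell by 0.27 ± 0.06 (adjusted p = 0.00324). Whether these genes have a part in the Hox differences was not tested.

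Of 22 measured genes inside or beside the clusters that are not Hox genes, 14 were above background. The F test called 7 of the 22, against 19.8% of all genes. At 46 h 3 were higher and 3 lower, against 11.5% and 9.73% of all genes. Evx1, a homeobox gene beside the posterior end of HoxA, lay at 8.31, 8.33 and 8.35 at 22 h and at 8.50, 8.71 and 8.67 at 46 h, a rise of 0.30 ± 0.06 (SE, n = 3, limma adjusted p = 0.00256). Its relative beside HoxD, Evx2, passed the F test (adjusted p = 0.0177) at a mean level of 7.42, at the edge of the background. Cbx5, beside HoxC, fell by 0.21 ± 0.06 (adjusted p = 0.0245).

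Other markers moved over the same times, where 11.5% of all genes were called higher at 46 h than at 22 h and 9.73% lower. In lists this short, counts of 1 or 2 cannot be told from these shares. Of 12 fibroblast markers, 6 rose and 1 fell between 22 h and 46 h, and their mean level went from between 11.12 and 11.23 at 22 h to between 11.41 and 11.43 at 46 h. The mean of 10 skeletal muscle markers lay between 7.37 and 7.46 at 22 h and between 7.51 and 7.55 at 46 h, with 2 rising. For 8 cartilage and bone markers it lay between 7.63 and 7.64 and then between 7.73 and 7.83, with 2 rising and 1 falling. For 8 epithelial markers it lay between 7.34 and 7.39 and was at most 7.27 at 46 h, with 2 falling. These 2 were Krt19, by 0.93 ± 0.09 (SE, n = 3, limma adjusted p = 1.55e-06), and Krt8, by 0.28. None of the other epithelial markers differed by more than the 0.16 of Krt15, which was higher at 46 h and did not pass. The muscle markers that passed the F test went different ways. Ckm, a muscle creatine kinase, rose by 0.28 ± 0.08 (SE, n = 3, limma adjusted p = 0.0218), and Acta1 and Des had differences of 0.22 and -0.20 between 46 h and 22 h that did not pass. Above background were 4 of the 10 muscle markers, 3 of the 8 of cartilage and bone, and 2 of the 8 epithelial ones. Of 8 endothelial markers 1 rose and 1 fell, of 8 macrophage markers 1 fell, and of 9 neural markers 1 rose and 1 fell, where 2, 2 and 6 of them stood above background. Myod1, a muscle marker that rose (mean 7.29), and Cd14, the macrophage marker that fell (7.39), were not above background. The part of these markers in the Hox differences was not tested.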

How the data were processed

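Total RNA from 18 fibroblast samples was hybridised to Affymetrix whole-transcript arrays. The authors deposited a linear intensity for each probe set, made with Affymetrix Expression Console 1.1 and PLIER 2.0 per the submitters' processing notes; their settings are not given there. Of 35556 probe sets, those with 1 symbol were kept, and the probe set of highest mean stood for a gene, leaving 19938 genes.

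Intensities were taken as log2(value + 16) and quantile normalized. In R 4.3.3, limma 3.58.1 (lmFit and eBayes) fitted 6 time means to all 18 arrays, giving an F test and the contrast of 46 h with 22 h, and a 24 h cosine in a separate fit. P-values were adjusted by Benjamini-Hochberg over all genes, threshold 0.05. The fits were tested on simulated data. Figures used matplotlib 3.10.9.

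The members and all lists were chosen with earlier results of these data known. By rule, all members are accounted for, and those that passed a test are given by array. Of each context list other than the cell type markers, up to 4 genes with the smallest F test p are named. Only some of the cell type markers are named, by no such rule. Mir615 was singled out after its values were seen. Alternatives covered normalization, the constant, filters, probe set choice, a block for the replicate number, weights for arrays, the variance model, thresholds, periods, the background measure and each array left out. Residual correlations showed no pairing of the samples by replicate number: for 45 same-number pairs they ran from -0.56 to 0.49, and 15 exceeded 0.1. The first component was not taken out for this, so a weaker pairing could have been missed. Promoter and microRNA sequences are RefSeq's.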

Additional observations from a re-analysis of the deposited data

How the results depend on the processing

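For the F test, 5 Hox genes passed with quantile normalization, 9 with values as deposited, 11 with arrays scaled to the same median and 19 with array weights, and the same settings gave 6595 (33.1%), 6330 (31.7%) and 10765 (54.0%) of all genes. At a threshold of 0.01 it was 1 Hox gene and at 0.1 it was 8. The shares of all genes at these thresholds were 9.25% and 28.4%. Between 46 h and 22 h, 6 passed, 15 with array weights (44.1% of all genes) and 2 at a threshold of 0.01 (12% of all genes). For the cosine, 0 passed, where 165 of all genes did. It was 2 with values as deposited (541 of all genes), 4 with the same median (1192), 1 with array weights (1043), 1 at a threshold of 0.1 (882) and 2 with a period of 26 h (1985). The cause of these shifts was not tested. With the 95th percentile of markers of other cell types as background, 17 Hox genes were above it.

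With each array left out in turn, the F test called 3 to 7 Hox genes (3 without replicate 1 or 3 of 46 h), the contrast 2 to 8 (2 without replicate 1 of 22 h or replicate 3 of 46 h, and 3 without replicate 3 of 22 h), the cosine 0 each time, and 25 to 26 were above background. In the same fits 13.2% to 23.5% of all genes passed the F test, 14% to 23.8% the contrast and 0.14% to 1.54% the cosine. With the replicate number as a block (replicate block), the F test called 4 (Hoxa2, Hoxb1, Hoxc4 and Hoxd13), the contrast 4 (Hoxb1, Hoxb5, Hoxc4 and Hoxc6) and the cosine 0, where 16.2%, 19.2% and 0.16% of all genes passed. The median same-number correlation was -0.10, and 3 of 18 arrays correlated best with their own number. With the array set as a block, an alternative chosen after seeing the data, the counts were 7, 8 and 0, where 31.7%, 30.1% and 3.21% of all genes passed. Signal over background limits Hoxc4 (mean 8.09) and Hoxb1 (8.10), which lie just over the receptors' 99th percentile of 8.03.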

Other observations

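Retinoic acid is the signal that switches on the anterior Hox genes in the embryo, and 3 genes of its pathway differed by more between 46 h and 22 h than the 0.34 of Hoxc4. Of 18 measured genes of the list, 13 were above background and 5 passed the F test, against 19.8% of all genes. At 46 h 3 were higher and 1 lower than at 22 h, against 11.5% and 9.73% of all genes. The median difference over the list was 0.08. Whether this pathway has a part in the Hox differences was not tested. Dhrs3, which turns retinal back into retinol, rose by 1.19 ± 0.12 (SE, n = 3 arrays a time, limma adjusted p = 2.04e-06), and Aldh1a1, which makes retinoic acid, rose by 1.09 ± 0.15 (adjusted p = 3.35e-05). Crabp1, which binds retinoic acid in the cytoplasm, fell by 0.80 ± 0.07 (adjusted p = 4.56e-07). Crabp2 passed the F test (adjusted p = 0.0306) but was not above background.

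Of 42 measured limb and axial patterning genes other than Hox genes, 27 were above background and 12 passed the F test, against 19.8% of all genes. At 46 h 9 were higher and 3 lower than at 22 h, against 11.5% and 9.73% of all genes. Among those higher, Shh, Tbx5, Cdx2 and Uncx were not above background, so theirs are changes within its range. The rest of those higher, and all of those lower, were above it. Gli1, a target of Hedgehog signals, fell by 0.40 ± 0.07 (SE, n = 3, limma adjusted p = 0.000662), and Tbx18, a T-box gene of the somites and limb, fell by 0.22 ± 0.05 (adjusted p = 0.00344). Gdf11, a signal that sets the level at which posterior Hox genes come on, rose by 0.31 ± 0.06 (adjusted p = 0.000965). Irx3 was the 1 gene of this list called by the cosine test, and it passed the F test at an adjusted p of 0.00742.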
